A study of Mus musculus with 8 samples.

Results

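Of the 33 genes listed for the mitochondrial pyruvate carrier, pyruvate dehydrogenase and its regulators, and the tricarboxylic acid (TCA) cycle with its entry and exit enzymes, 32 were rows of the deposited expression table of 10639 genes. The rule took every row whose symbol equals a listed name, and Pdk2 had no row. All 32 had an FPKM (fragments per kilobase of transcript, scaled to the reads of the library) of at least 1 in every library, so none was lost to the filter on low values or entered through a single group. The study treated RAW264.7, a mouse macrophage-like line transformed with Abelson leukaemia virus, labelled wild type in all groups, and sequenced its RNA, with 2 libraries in each of 4 groups. The labels describe Illumina libraries from Trizol-extracted total RNA but also carry the words 10x Genomics, and the table, which has 1 column per library and no cells, was read as bulk RNA-seq. If the reads were 3′ tags instead, values per length, reads per member and levels compared between genes would not hold, whereas differences of 1 gene between libraries need no length. The groups were cells given lipopolysaccharide (LPS) together with antibodies against CD36 for 12 h, with no dose in their labels, cells given LPS at 50 ng/mL for 12 h, cells given the antibodies at a dilution of 1 in 100 for 12 h, and untreated cells. The labels of the untreated cells give no time, so a difference of time in culture cannot be told apart from treatment. LPS is an outer membrane lipid of Gram-negative bacteria that TLR4 detects, and CD36 is a scavenger receptor that takes up long-chain fatty acids and oxidized lipoproteins. No group received an antibody of another specificity, and nothing in the labels says whether the 2 libraries of a group came from separate cultures.

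Pyruvate enters mitochondria through a carrier of MPC1 and MPC2 and is turned into acetyl-CoA by the pyruvate dehydrogenase complex, which kinases of the PDK family switch off by phosphorylation and phosphatases switch back on. Acetyl-CoA then joins oxaloacetate to form citrate, and the cycle oxidizes citrate stepwise while it feeds electrons to the respiratory chain. In macrophages given LPS the cycle is known as a supplier of signalling and building molecules, because citrate is drawn off for itaconate by ACOD1 and for lipid synthesis by ATP-citrate lyase, and succinate accumulates.

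The recovered depth was 47896800 to 71705300 reads per library, and the members rested on about 324 to 47957 reads per library. Among the antibody-only libraries, the 13 genes of the mitochondrial genome made up 15.7% of total FPKM in the first and 6.59% in the second, and 3.28% to 6.62% elsewhere. The antibody-only pair was also the least alike, with an SD across genes of 0.45 for the log2 difference between its libraries and 0.14 to 0.22 for the other pairs. Of 9 macrophage markers, 8 were in the table and Mertk was absent. Lyz2 had 1444 to 3747 FPKM, Csf1r 73.8 to 311, Adgre1 8.26 to 84.1 and Itgam 7.83 to 18.8. Of 34 markers of granulocytes, dendritic cells, T and NK cells, B cells, fibroblasts, epithelium and endothelium, the table held only Csf3r, Zbtb46, Itgax, Fscn1, Lck, Cd79b and Ighm. The B cell markers Cd79b and Ighm summed to 68.0 to 110 FPKM per library, and the granulocyte marker Csf3r had 2.97 to 4.92. The 3 dendritic cell markers summed to 3.22 to 4.99 FPKM in libraries with LPS and 1.15 to 1.24 in those without it. The T and NK cell marker Lck had 4.15 to 4.32 FPKM with LPS and 1.72 to 2.00 without it. Ribosomal protein genes made up 11.5% to 13.5% of total FPKM in libraries with LPS, 7.39% and 12.7% with anti-CD36 alone, and 9.18% and 7.38% in untreated cells. The part of these in the results was not tested. In bulk samples fewer expressing cells and less RNA per cell cannot be told apart.

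LPS changed 15 of the 32 members, 13 downward and 2 upward. The falls took in pyruvate carboxylase, the mitochondrial malic enzyme, the pyruvate dehydrogenase phosphatases, citrate synthase, 2 isocitrate dehydrogenases and ATP-citrate lyase, and the rises were in Dld and Sucla2. A gene was called changed when its difference on the log2(FPKM + 1) scale had a Benjamini-Hochberg adjusted p under 0.05 in limma over all 10289 genes tested. The members' 46.9% lay below the 54.6% of all genes called in this comparison, of which 17.0% were higher and 37.5% lower. The members' median difference was -0.27, against -0.19 over all genes. After scaling by size factors, which brought the median of all genes to 0.01, 4 members were higher and 9 lower, with 2667 genes higher and 2709 lower in all. With the length trend removed 3 members were higher and 8 lower, with 2318 genes higher and 2944 lower in all. With the mitochondrial genes left out 1 member was higher and 20 lower, at a median of -0.48. Of all genes 1210 were then higher and 4960 lower, at a median of -0.38. Without LPS replicate 1 the members' median was -0.29, against -0.17 over all genes.

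With LPS plus anti-CD36 against untreated cells, 14 members changed, 12 downward and 2 upward, namely those called with LPS other than Ogdh and Dlst, and Pdk3 in addition. The background was 59.1% of all genes called, 17.3% higher and 41.8% lower, against 43.8% of members, and the medians were -0.23 for both. With size factors 6 members were higher and 8 lower, against 2958 and 2916 of all genes, which had a median of 0.02. With the length trend removed 6 members were higher and 9 lower, against 2427 and 2964 of all genes. With the mitochondrial genes left out 1 member was higher and 21 lower, against 1109 and 5696 of all genes. Without either anti-CD36 library the medians stayed at -0.23 for the members and for all genes. This comparison and that of LPS alone share the untreated libraries. Of the 32 members, 17 were called in at least 1 of the 6 comparisons made and 15 in none. The same count over all genes was not made, but the combination against untreated cells by itself called 59.1% of them.

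**Figure D1:**
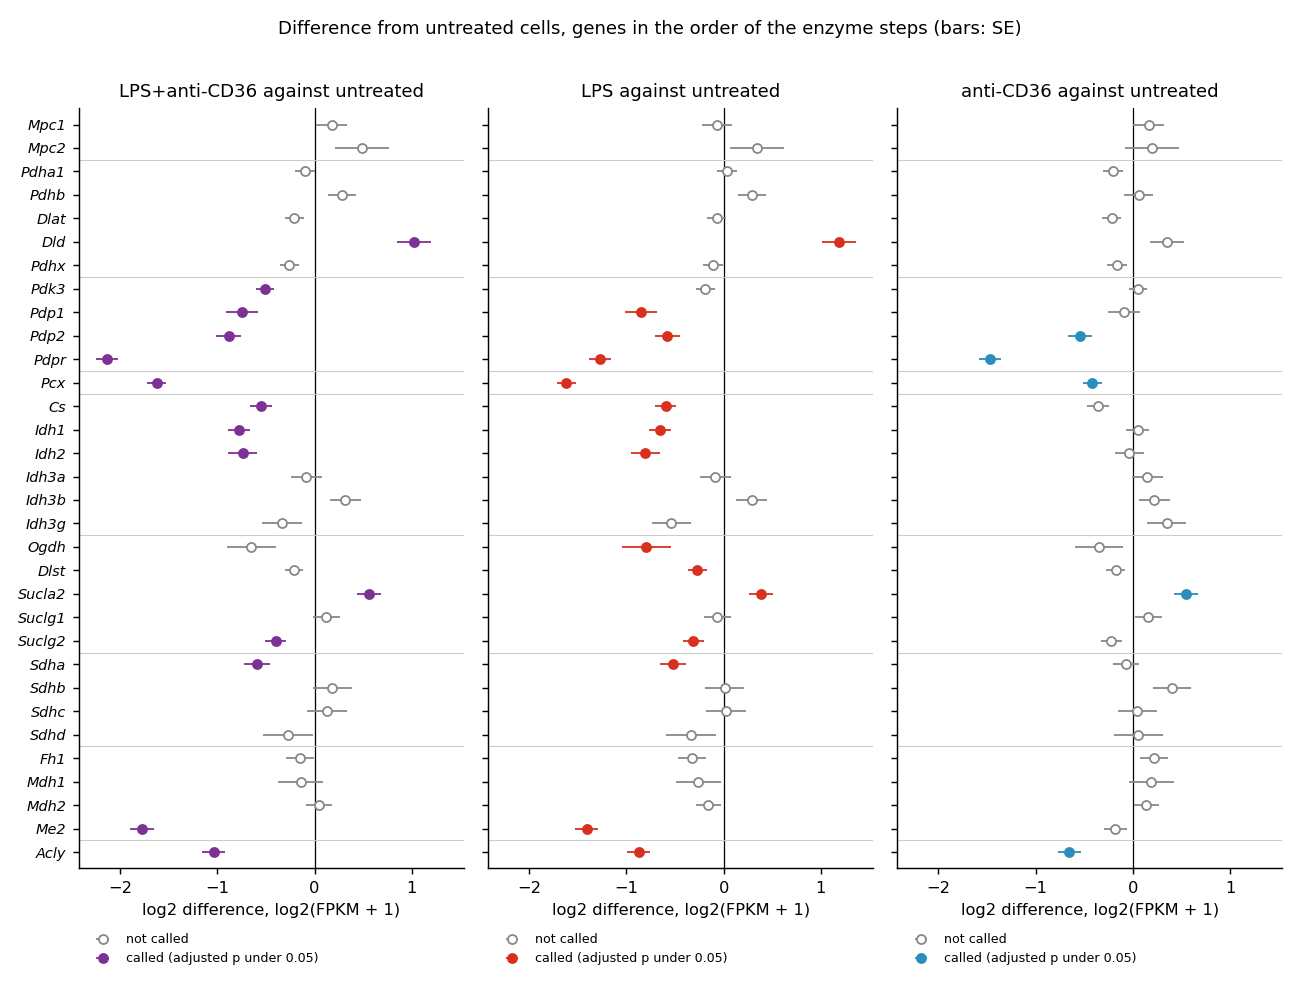
Difference of each of the 32 members from untreated cells on the log2(FPKM + 1) scale, in the order of the enzyme steps, for LPS plus anti-CD36, LPS and anti-CD36, with SE bars and points filled where the adjusted p was under 0.05. Pcx, Me2 and Pdpr lie furthest left in the LPS panel, Dld furthest right, and Pdpr at -2.13 is the lowest point of all.

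Neither subunit of the pyruvate carrier was called in any comparison. Mpc1 ranged from 7.46 to 11.2 FPKM over the 8 libraries and Mpc2 from 3.55 to 7.77, and for both the widest replicate gap was between the anti-CD36 libraries.

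In the pyruvate dehydrogenase complex itself, 4 of 5 subunits stayed uncalled and the fifth, Dld, rose about 2-fold with LPS. Of all genes 54.6% were called with LPS, and 5 genes are too few to set against that share. Dld encodes the dihydrolipoamide dehydrogenase (E3), which the complex shares with the oxoglutarate and branched-chain ketoacid dehydrogenases and the glycine cleavage system. The gene lies on chromosome 12 at 31331277 to 31351453 (GRCm38, minus strand, protein-coding). Dld stood at 57.7 and 71.2 FPKM with LPS plus anti-CD36, 70.8 and 73.1 with LPS, 33.9 and 47.1 with anti-CD36, and 30.7 and 31.4 in untreated cells. All 4 libraries with LPS lay above all 4 without it. The log2 difference from untreated cells was 1.19 ± 0.17 (SE) for LPS (limma adjusted p = 0.000996) and 1.02 ± 0.17 for LPS plus anti-CD36 (0.00176). With anti-CD36 alone it was 0.35 ± 0.17, which was not called (0.213).

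The catalytic E1 subunits, the E2 core and its binding partner moved little. With LPS against untreated cells the differences were 0.04 for Pdha1 (95% interval -0.20 to 0.27), 0.29 for Pdhb (-0.05 to 0.64), -0.07 for Dlat (-0.30 to 0.16) and -0.11 for Pdhx (-0.35 to 0.12). None of these 4 was called in any comparison, and the intervals leave out changes as large as that of Dld. The ratio of Dld to Dlat, the E2 acetyltransferase, was 2.21 and 2.69 with LPS plus anti-CD36, 2.50 and 2.47 with LPS, 1.33 and 1.76 with anti-CD36, and 1.01 and 1.03 in untreated cells. Both libraries of each LPS group lay above all libraries without LPS in this ratio.

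**Figure D2:**
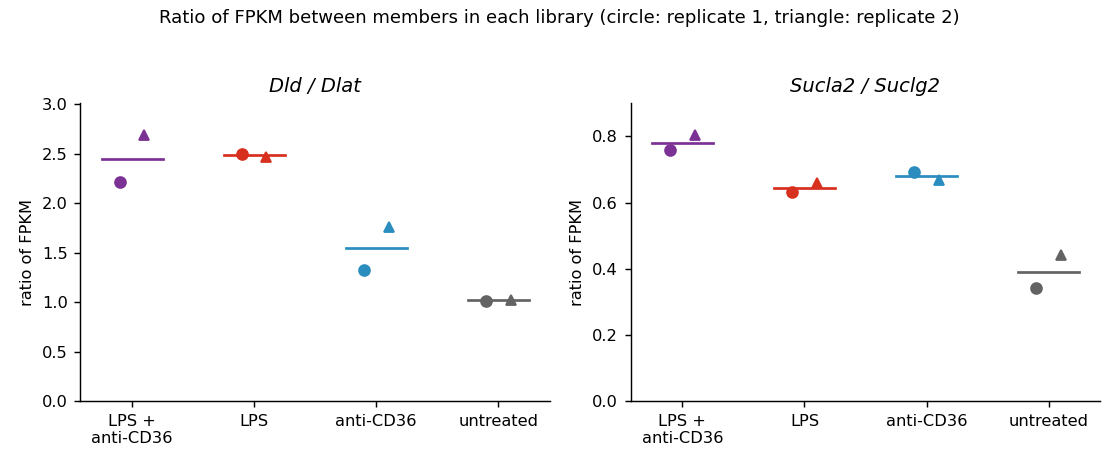
Ratio of FPKM between Dld and Dlat (left) and between Sucla2 and Suclg2 (right) in each library, with the mean of 2 libraries as a line. The Dld ratio is 2.21 to 2.69 in the libraries with LPS and 1.01 to 1.03 in untreated ones, and the Sucla2 ratio is lowest in untreated cells, at 0.341 and 0.442.

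Of the 4 members that regulate the complex, 3 were called lower with LPS and 4 with the combination against untreated cells. Of all genes, 37.5% and 41.8% were called lower in these comparisons. The kinase gene Pdk1, outside the list of members, was lower too. Its mean was 4.70 FPKM with the combination, 9.65 with LPS, 21.1 with anti-CD36 and 28.8 in untreated cells. All 3 phosphatase genes, the catalytic Pdp1 and Pdp2 and the regulatory subunit gene Pdpr, were lower with LPS and with LPS plus anti-CD36 than in untreated cells. Pdpr (chromosome 8, 111094630 to 111137074, GRCm38, plus strand, protein-coding) had 1.52 and 1.70 FPKM with LPS plus anti-CD36, 3.52 and 3.95 with LPS, 2.93 and 3.31 with anti-CD36, and 9.85 and 11.0 in untreated cells. The 4 groups did not overlap, with the combination lowest, the single treatments in between and untreated cells highest. The log2 difference from untreated cells was -2.13 ± 0.11 for the combination (limma adjusted p = 8.89e-06) and -1.27 ± 0.11 for LPS (0.000102), and the mean FPKM of the combination was 0.154 of the untreated mean.

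Pdp2 had 4.02 and 4.67 FPKM with LPS plus anti-CD36, 5.38 and 5.78 with LPS, 5.14 and 6.43 with anti-CD36, and 8.63 and 9.06 in untreated cells. Untreated cells were again highest, and the LPS and anti-CD36 libraries overlapped each other. Its difference from untreated cells was -0.88 ± 0.13 for the combination (limma adjusted p = 0.000807) and -0.58 ± 0.13 for LPS (0.00653). The LPS call was lost without LPS replicate 1, at differences of -0.63 to -0.54 when libraries were left out singly, and with the length trend removed. Pdp1 had 1.82 and 2.06 FPKM with LPS plus anti-CD36, 1.31 and 2.24 with LPS, 3.51 and 3.74 with anti-CD36, and 3.62 and 4.25 in untreated cells. The 4 libraries with LPS were all lower than the 4 without it. The difference from untreated cells was -0.74 ± 0.16 for the combination (limma adjusted p = 0.00609) and -0.85 ± 0.16 for LPS (0.00375).

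Pdk3, a kinase that inactivates the complex, was called lower in the combination against untreated cells and against anti-CD36. It had 21.2 and 21.7 FPKM with LPS plus anti-CD36, 26.6 and 27.6 with LPS, 32.3 and 32.1 with anti-CD36, and 31.4 and 30.6 in untreated cells. The combination lay lowest and LPS next, with no overlap. The difference was -0.51 ± 0.10 against untreated cells (limma adjusted p = 0.0029, lost with size factors at -0.23) and -0.56 ± 0.10 against anti-CD36 (0.00255). Against LPS it was -0.32 ± 0.10 and not called (0.129), and LPS alone differed from untreated cells by -0.19 ± 0.10, also not called (0.134), so no difference between the 2 LPS effects was shown (interaction -0.38, 0.325).

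Pcx, the pyruvate carboxylase that makes oxaloacetate from pyruvate and so refills the cycle, showed the largest fall of any member with LPS. It had 1.31 and 1.27 FPKM with LPS plus anti-CD36, 1.36 and 1.22 with LPS, 4.13 and 4.41 with anti-CD36, and 6.32 and 5.79 in untreated cells. Both LPS groups lay together near 1.3 FPKM, well below the others, and the anti-CD36 libraries lay between them and the untreated ones. The difference from untreated cells was -1.62 ± 0.10 for both LPS groups (limma adjusted p = 1.46e-05 for the combination and 1.91e-05 for LPS), and the mean FPKM was 0.213 and 0.214 of the untreated mean. The gene lies on chromosome 19 at 4510472 to 4621752 (GRCm38, plus strand, protein-coding).

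Shown are windows of 250 bases upstream of a RefSeq start of Dld, Pdpr, Pdp2 and Pcx. Dld was the member that rose most with LPS. Pdpr, Pdp2 and Pcx were called lower with LPS and were picked because they hold a CACGTG match (an E-box). For Pcx the start was also picked to hold the match. Ogdh was called lower and has a match too, but is not shown. With LPS, Me2, Acly, Pdp1, Idh2, Ogdh, Idh1 and Cs fell more than Pdp2. The windows come from RefSeq on GRCm38.p6 and are written 5′ to 3′ on the strand of the gene. CACGTG and CCAAT (or its reverse complement) are in capitals.
Dld, chr12:31351472-31351721, minus strand: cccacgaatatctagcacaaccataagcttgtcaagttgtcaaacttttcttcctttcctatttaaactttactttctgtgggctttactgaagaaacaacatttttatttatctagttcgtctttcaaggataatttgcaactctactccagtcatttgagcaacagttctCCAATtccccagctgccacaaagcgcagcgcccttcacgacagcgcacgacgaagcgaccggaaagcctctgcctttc
Pdpr, chr8:111094495-111094744, plus strand: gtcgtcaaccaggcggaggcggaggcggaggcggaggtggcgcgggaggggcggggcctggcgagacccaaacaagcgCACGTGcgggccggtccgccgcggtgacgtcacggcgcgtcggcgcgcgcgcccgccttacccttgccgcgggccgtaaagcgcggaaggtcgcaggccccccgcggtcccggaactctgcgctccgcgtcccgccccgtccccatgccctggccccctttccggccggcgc
Pdp2, chr8:104591222-104591471, plus strand: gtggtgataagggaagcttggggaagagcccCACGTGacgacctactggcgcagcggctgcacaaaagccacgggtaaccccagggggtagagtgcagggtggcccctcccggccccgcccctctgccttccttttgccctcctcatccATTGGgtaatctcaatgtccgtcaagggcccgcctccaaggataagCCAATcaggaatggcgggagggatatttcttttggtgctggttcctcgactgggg
Pcx, chr19:4510222-4510471, plus strand: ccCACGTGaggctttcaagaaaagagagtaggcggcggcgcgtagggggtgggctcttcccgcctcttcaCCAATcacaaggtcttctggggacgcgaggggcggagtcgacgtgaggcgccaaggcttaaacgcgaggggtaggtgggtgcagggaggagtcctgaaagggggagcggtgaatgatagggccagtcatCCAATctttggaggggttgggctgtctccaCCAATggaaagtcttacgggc

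The table of starts matched 29 of the 33 listed genes, with 38 starts. Motifs were searched on both strands and independently, so overlapping matches count for each. CACGTG was found at 7 of the 38 member starts and at 6.02% of all 32851 starts, in Pdp2, Pdpr, Pcx, Ogdh and Pdk2. The first 4 of these were called lower with LPS, and Pdk2 had no row. In that comparison 13 of the 32 members and 37.5% of all genes were called lower. The call of Ogdh was lost under 8 of 20 alternatives. The motif was chosen after these values were seen, and a link between it and the falls was not tested. CCAAT was found at 21 of the 38 and at 33.8% of all starts, GGGCGG at 24 and 32.7%, the NF-kB consensus at 7 and 7.25%, the NRF1 consensus at 3 and 3.74%, and TCAAGGTCA (the ERR element) at 0 and 0.387%. A match of letters is a description of the window and not evidence that a factor binds there.

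Citrate synthase and the NADP-dependent isocitrate dehydrogenases fell with LPS, while the 3 subunits of the NAD-dependent isocitrate dehydrogenase of the cycle, Idh3a, Idh3b and Idh3g, were not called against untreated cells. Cs had 67.5 and 70.0 FPKM with LPS plus anti-CD36, 68.0 and 65.0 with LPS, 75.4 and 81.9 with anti-CD36, and 103 and 99.5 in untreated cells. Untreated cells were highest, without overlap, and the difference was -0.55 ± 0.11 for the combination (limma adjusted p = 0.0039) and -0.60 ± 0.11 for LPS (0.00296). The combination's call was lost with size factors (-0.26) and with the length trend removed (-0.19).

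The cytosolic Idh1 had 45.5 and 47.3 FPKM with LPS plus anti-CD36, 47.3 and 54.0 with LPS, 79.6 and 86.4 with anti-CD36, and 79.4 and 81.0 in untreated cells. Its difference from untreated cells was -0.78 ± 0.12 for the combination (limma adjusted p = 0.000983) and -0.66 ± 0.12 for LPS (0.0025). The mitochondrial Idh2 had 52.1 and 50.3 FPKM with LPS plus anti-CD36, 49.5 and 48.2 with LPS, 73.4 and 96.0 with anti-CD36, and 90.6 and 81.9 in untreated cells. For both genes the 4 libraries with LPS lay apart from and below the 4 without it. The difference of Idh2 was -0.74 ± 0.15 for the combination (limma adjusted p = 0.00378) and -0.81 ± 0.15 for LPS (0.00283).

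With LPS against untreated cells the NAD-dependent subunits differed by -0.09 (Idh3a, 95% interval -0.46 to 0.28), 0.29 (Idh3b, -0.09 to 0.67) and -0.54 (Idh3g, -1.01 to -0.07, limma adjusted p = 0.0533). The interval of Idh3g does not leave out a fall as large as those of Idh1 and Idh2. Idh3g had 65.2 and 58.6 FPKM with LPS plus anti-CD36, 53.9 and 53.0 with LPS, 126 and 79.5 with anti-CD36, and 78.8 and 77.6 in untreated cells. It was called in the combination against anti-CD36 alone (-0.68, limma adjusted p = 0.0262), where anti-CD36 replicate 1 stood far above the rest. Without that library the difference was -0.36, and the call was lost without any of the 4 libraries with LPS, with size factors and when the 2 groups were fitted alone.

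In the next steps, the succinyl-CoA synthetase subunits went in opposite directions. Sucla2, the ADP-forming beta subunit, was higher in all treated groups, and Suclg2, the GDP-forming beta subunit, was lower with LPS, while Suclg1, the alpha subunit they share, was not called. Sucla2 had 19.2 and 22.2 FPKM with LPS plus anti-CD36, 17.8 and 18.5 with LPS, 20.0 and 20.9 with anti-CD36, and 12.4 and 15.1 in untreated cells. Suclg2 had 25.4 and 27.6 FPKM with LPS plus anti-CD36, 28.2 and 28.1 with LPS, 28.9 and 31.3 with anti-CD36, and 36.4 and 34.1 in untreated cells. For both, untreated cells lay outside the range of all treated libraries. The ratio of Sucla2 to Suclg2 was 0.758 and 0.804 with LPS plus anti-CD36, 0.632 and 0.658 with LPS, 0.693 and 0.668 with anti-CD36, and 0.341 and 0.442 in untreated cells.

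The difference of Sucla2 from untreated cells was 0.56 ± 0.13 for the combination (limma adjusted p = 0.00685) and 0.38 ± 0.13 for LPS (0.0355). That of Suclg2 was -0.40 ± 0.11 for the combination (limma adjusted p = 0.0139) and -0.31 ± 0.11 for LPS (0.0386). These are small changes near the threshold. The Sucla2 calls were lost without untreated replicate 1, where the combination stood at 0.43 and LPS at 0.25, and with the mitochondrial genes left out. The LPS call of Sucla2 was also lost without either LPS library, and the combination's without combination replicate 2. The Suclg2 calls were lost with size factors (-0.11 for the combination and -0.08 for LPS) and with the length trend removed (-0.11 and -0.06). They were also lost without either untreated library, at differences of -0.46 to -0.34 for the combination and -0.36 to -0.27 for LPS when libraries were left out singly. The LPS call of Suclg2 was also lost without any other library with LPS, and the combination's without combination replicate 1.

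Ogdh and Dlst, the E1 and E2 of the oxoglutarate dehydrogenase complex, were lower with LPS by 0.80 and 0.27 on the log2 scale. Ogdh had 45.4 and 40.9 FPKM with LPS plus anti-CD36, 37.7 and 39.8 with LPS, 72.4 and 39.2 with anti-CD36, and 66.1 and 70.1 in untreated cells. The anti-CD36 replicates disagreed, the first with untreated cells' level and the second with that of LPS. Dlst had 24.1 and 23.2 FPKM with LPS plus anti-CD36, 22.4 and 22.9 with LPS, 24.8 and 23.7 with anti-CD36, and 27.8 and 27.2 in untreated cells. The untreated libraries were the highest, by a small margin. Both calls (limma adjusted p = 0.029 for Ogdh and 0.0469 for Dlst) were lost with size factors, with the length trend removed, and without any 1 library of the untreated, LPS or combination groups. With size factors the difference was -0.56 for Ogdh and -0.04 for Dlst, and with the length trend removed it was -0.53 for Ogdh and -0.01 for Dlst. When libraries were left out singly it was -0.84 to -0.76 for Ogdh and -0.28 to -0.25 for Dlst.

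Of the 4 succinate dehydrogenase subunits (complex II of the respiratory chain), the flavoprotein Sdha was called and Sdhb, Sdhc and Sdhd were not. Here too, 4 genes are too few to set against the 54.6% of all genes called with LPS. Sdha had 56.5 and 52.2 FPKM with LPS plus anti-CD36, 56.1 and 58.1 with LPS, 70.3 and 87.7 with anti-CD36, and 85.1 and 80.0 in untreated cells. The libraries with LPS were all below those without it. The difference from untreated cells was -0.59 ± 0.14 for the combination (limma adjusted p = 0.00713) and -0.52 ± 0.14 for LPS (0.0134). Both calls were lost with size factors (-0.30 for the combination and -0.29 for LPS) and with the length trend removed (-0.37 and -0.31), the combination's also without combination replicate 2 (range -0.65 to -0.54) and that of LPS without either untreated or either LPS library (-0.57 to -0.48). With LPS, Sdhb differed by 0.01 (95% interval -0.45 to 0.47), Sdhc by 0.02 (-0.45 to 0.50) and Sdhd by -0.34 (-0.93 to 0.26). The interval of Sdhd takes in the change of Sdha, those of Sdhb and Sdhc end at -0.45, and a difference between the subunits was not tested.

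The last steps of the cycle, fumarase and the malate dehydrogenases, were not called in any comparison. Over the 8 libraries Fh1 ranged from 46.4 to 77.8 FPKM, the cytosolic Mdh1 from 88.6 to 165 and the mitochondrial Mdh2 from 119 to 159. Me2, the mitochondrial malic enzyme that turns malate into pyruvate, was among the members that fell most. It had 14.9 and 17.1 FPKM with LPS plus anti-CD36, 20.0 and 21.7 with LPS, 47.3 and 53.4 with anti-CD36, and 58.8 and 55.5 in untreated cells. All 4 groups were apart, in that order from lowest to highest. The difference from untreated cells was -1.77 ± 0.12 for the combination (limma adjusted p = 2.59e-05) and -1.41 ± 0.12 for LPS (8.94e-05).

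Acly, the ATP-citrate lyase that splits exported citrate into acetyl-CoA and oxaloacetate in the cytosol, was also lower in every treated group. It had 58.9 and 60.8 FPKM with LPS plus anti-CD36, 64.5 and 69.7 with LPS, 83.4 and 73.8 with anti-CD36, and 121 and 127 in untreated cells. Untreated cells stood far above the others, and the order of the means was combination, LPS, anti-CD36 and untreated, without overlap. The difference from untreated cells was -1.04 ± 0.12 for the combination (limma adjusted p = 0.000269) and -0.88 ± 0.12 for LPS (0.000691). The gene lies on chromosome 11 at 100476353 to 100528000 (GRCm38, minus strand, protein-coding).

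**Figure D3:**
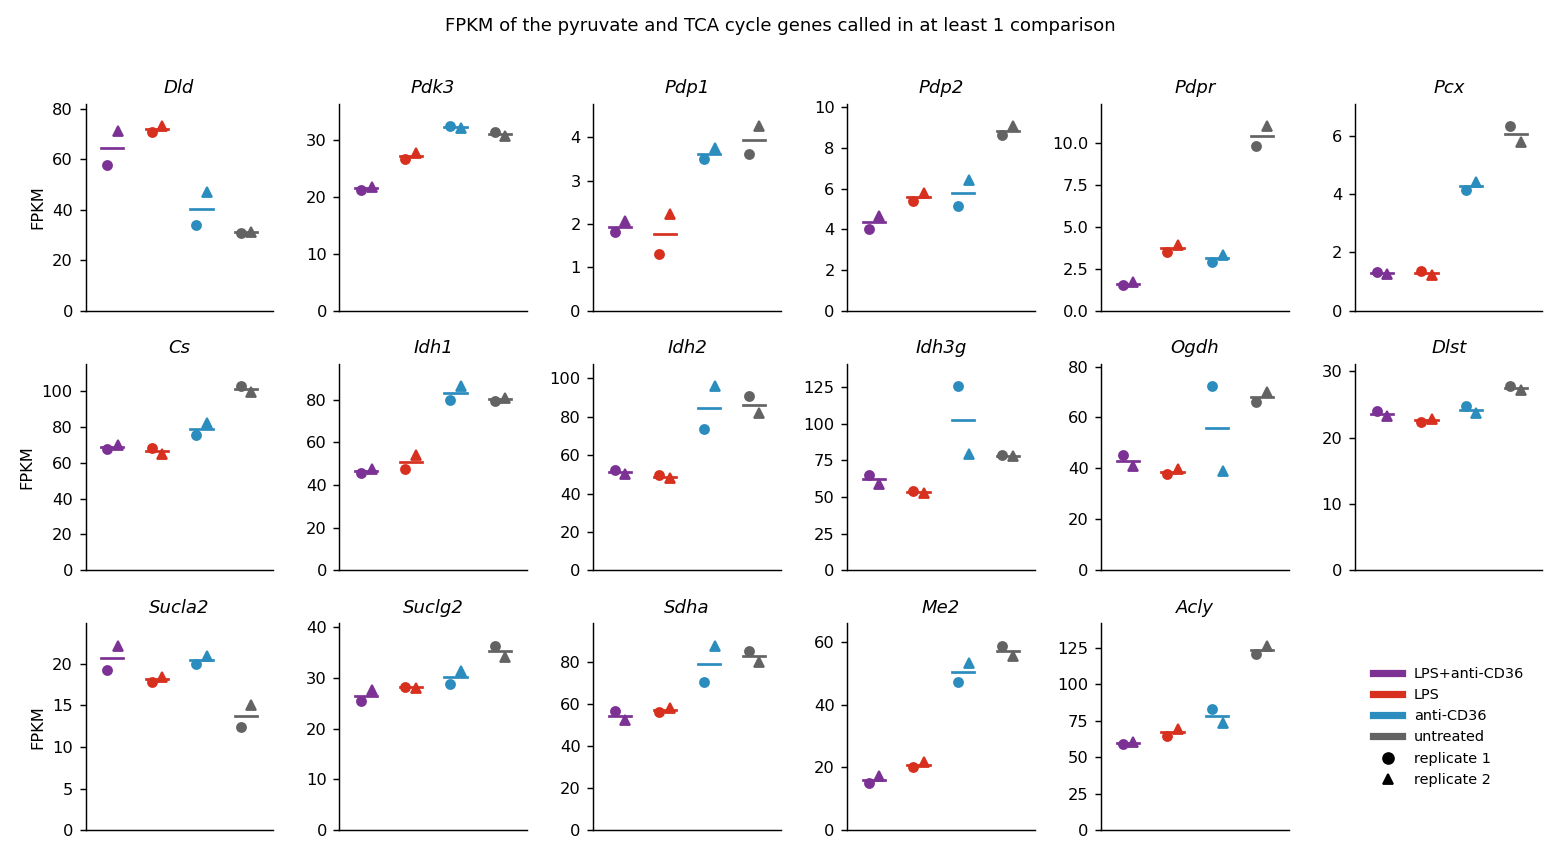
FPKM of the 17 members called in at least 1 comparison, by library, with circles for replicate 1, triangles for replicate 2 and lines for the mean of each group. Me2, Idh1 and Idh2 split into libraries with and without LPS, Pdpr, Pdp2, Pcx and Acly are also lower with anti-CD36 alone, and the anti-CD36 replicates of Ogdh and Idh3g lie far apart.

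With anti-CD36 alone against untreated cells, 5 of 32 members were called, Pdpr, Pdp2, Pcx and Acly lower and Sucla2 higher. That is 15.6% of the members, against 13.7% of all genes (3.04% higher and 10.6% lower), so the share was near the background. Pdpr differed most, by -1.47 ± 0.11 (limma adjusted p = 0.0107), followed by Acly (-0.65 ± 0.12, 0.019), Sucla2 (0.55 ± 0.13, 0.0333), Pdp2 (-0.54 ± 0.13, 0.0343) and Pcx (-0.42 ± 0.10, 0.0333). In each of the 5 genes both anti-CD36 libraries lay on the same side of both untreated ones. The 5 were picked by this same comparison, and uncalled members such as Cs, Suclg2 and Dlst were apart in this way too. The variance estimate behind this count came from all 4 groups. When only the 4 libraries compared were fitted, none of the 5 was called, nor was any gene of the table. All 5 calls, and those of all other genes, were lost when either untreated library was left out. Some were also lost without a library of the LPS or combination groups. Without anti-CD36 replicate 1 or 2 the members' median difference was 0.07 and -0.15, against -0.04 and -0.14 over all genes. With the mitochondrial genes left out 5 members were called, all lower, against 138 genes higher and 1305 lower in all.

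Differences in this comparison followed exon length across genes (Spearman rho -0.446 over 10044 genes, which are not independent replicates), and the members' exon lengths ran from 1231 bp for Sdhd to 9559 bp for Dlst, with Pdpr at 5028 bp. With the length trend removed Pdpr stayed called at -1.34 (limma adjusted p = 0.0133), and so did Sucla2, while Pdp2, Pcx and Acly were not called. Pdpr lost its call without untreated replicate 1 (-1.55, limma adjusted p = 0.0617), without untreated replicate 2 (-1.40, 0.105) and when the 2 groups were fitted alone (0.162).

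The antibodies' effect in LPS-treated cells was asked by LPS plus anti-CD36 against LPS. Of the members 1, Pdpr, was called, lower by -0.86 ± 0.11 (limma adjusted p = 0.0214), at 0.43 of the LPS mean. This is 3.13% of the members, against 1.78% of all genes (0.360% higher and 1.42% lower). The next differences were -0.37 ± 0.12 in Me2 (0.162), -0.32 ± 0.10 in Pdk3 (0.129) and -0.30 ± 0.13 in Pdp2 (0.25), none of them called by limma. The Pdpr call was lost without any of the 4 libraries compared, at -0.93 to -0.79 and adjusted p-values of 0.152 to 0.246, and it was kept with the length trend removed (-0.80, limma adjusted p = 0.0322), where the difference of all genes followed length at a Spearman rho of -0.477. When the 2 groups were fitted alone 3 members were called, against 2384 genes in all.

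In antibody-treated cells LPS changed 11 members (LPS plus anti-CD36 against anti-CD36), 10 downward and Dld upward, or 34.4% against 47.1% of all genes (15.4% higher and 31.7% lower). The falls were largest in Me2 (-1.59 ± 0.12, limma adjusted p = 5.56e-05), Pcx (-1.20 ± 0.10, 7.7e-05), Idh1 (-0.82 ± 0.12, 0.00105) and Idh2 (-0.70 ± 0.15, 0.0064). Dld was higher by 0.67 ± 0.17 (0.0157), a call lost without combination replicate 2 (0.52, limma adjusted p = 0.108) and when the 2 groups were fitted alone. With size factors 2 members were higher and 7 lower, against 2383 and 2325 of all genes. Without anti-CD36 replicate 1 the members' median difference was -0.27, against -0.18 over all genes. Without combination replicate 1 or 2 it was -0.23 each time, against -0.14 and -0.16.

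The interaction, defined as the LPS difference in antibody-treated cells minus the LPS difference in cells without antibodies, was called in 0 of 32 members by limma, against 1 of all 10289 genes, or 0.00972%. At an unadjusted p under 0.05 there were 5 members and 1396 genes. The 5 were Pdpr (0.61 ± 0.16), Acly (0.49 ± 0.17), Pcx (0.42 ± 0.14), Cs (0.41 ± 0.16) and Pdk3 (-0.38 ± 0.14), with adjusted p-values of 0.272 to 0.336. In the first 4, where the antibodies alone already stood below untreated cells, the further fall with LPS was smaller than in cells without antibodies, but no such difference passed the test. Without anti-CD36 replicate 1 the interaction was called in 2 members, Dld and Ogdh, among 616 genes.

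Other genes of the pathway were taken from a list of 37, of which 31 were in the table and tested. With LPS 14 fell and 3 rose, or 54.8% against 54.6% of all genes, with a median of -0.18 against -0.19, so the count was that of the background. The rises were in Acod1, which makes itaconate from aconitate (6.17), the succinate dehydrogenase assembly factor gene Sdhaf3 (0.75) and the cytosolic aspartate aminotransferase gene Got1 (0.37, named after its value was seen to complete the 3). Acod1 had 1667 and 1645 FPKM with LPS plus anti-CD36, 1343 and 1576 with LPS, 25.1 and 19.6 with anti-CD36, and 19.0 and 19.4 in untreated cells. Among the falls were Pdk1, a pyruvate dehydrogenase kinase (-1.49), the coactivator gene Ppargc1b (-1.10), the lipoyl transferase gene Lipt2 (-0.76), the cytosolic aconitase Aco1 (-0.70), the hydroxyglutarate dehydrogenase gene D2hgdh (-0.67) and the citrate carrier Slc25a1 (-0.65).

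Pdk1 followed the order of Me2, with 4.65 and 4.75 FPKM with LPS plus anti-CD36, 9.24 and 10.1 with LPS, 19.1 and 23.2 with anti-CD36, and 28.3 and 29.4 in untreated cells. It was the gene of this list called in the combination against LPS (-0.90 ± 0.12, limma adjusted p = 0.0214), or 3.23% of the list against 1.78% of all genes. Of the 31, 16 fell and 6 rose with the combination against untreated cells, or 71.0% against 59.1% of all genes. With the combination against anti-CD36, 8 fell and 5 rose, or 41.9% against 47.1%. With anti-CD36 alone 2 fell, Aco1 (-0.46) and the cytosolic malic enzyme Me1 (-0.53), or 6.45% against 13.7%.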

How the data were processed

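The authors deposited FPKM values for 8 libraries in 1 table, and the unit is per the labels of that table. HISAT2 2.0.5 is listed in the submitters' processing notes, as are the genome builds hg38 and mm10 with no role stated. The counter, annotation, strand use and treatment of multiply mapped reads are not given in the sources used here, so values of genes with processed pseudogenes or overlapping neighbours are uncertain. No gene was at 0 in any library.

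Groups and replicates came from the labels. Depth was recovered from 95 to 104 RNAs per library of at most 200 bp and under 60 reads, of which 94 to 103 came out as whole reads within 0.05. Reads per member are FPKM times this depth and the GENCODE M21 (GRCm38) union exon length, so they are approximate and cover counting error only. Of the symbols, 10376 had a GENCODE length.

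The test was limma 3.58.1 (R 4.3.3), applied to log2(FPKM + 1) of the 10289 genes that reached an FPKM of 1 in 2 or more libraries, with 4 group means over all 8 libraries, a trended prior (4 residual and 3.46 prior degrees of freedom) and Benjamini-Hochberg adjustment. A fold on this scale understates changes of low genes. The p-values reflect only how far these libraries differ, and that spread may be technical. The code was tested on simulated data with 200 changed genes. Members, lists and alternatives were chosen with earlier results of these data known. All listed members may be named, those called with each value. Of the other pathway genes, up to 8 called ones with the largest differences and Acod1 are named. Promoter windows, motifs and the ratios between members were chosen after the values were seen.

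The alternatives were size factors, quantile normalization, pseudocounts of 0.1 and 5, a mean FPKM of at least 5, no filter, mitochondrial genes left out, fitting each pair of groups alone, no trend, a replicate block, removal of the length trend, a log2 difference of at least 0.5, and each library left out.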

Additional observations from a re-analysis of the deposited data

How the results depend on the processing

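No called difference of a member changed sign under any alternative. Of 46 called differences, 24 kept their call under every alternative that could give a value, among them 9 with LPS and 9 with the combination against untreated cells (Dld, Pdp1, Pdpr, Pcx, Idh1, Idh2, Me2 and Acly in both). None of the 5 with anti-CD36 alone did. A mean FPKM of at least 5 left Pdp1, Pdpr and Pcx untested. When libraries were left out singly, the count of members called was 9 to 21 with LPS, 0 to 13 with anti-CD36, 12 to 22 with the combination against untreated cells, 0 to 3 against LPS, 6 to 17 against anti-CD36 and 0 to 2 for the interaction. When each pair of groups was fitted alone it was 0 with anti-CD36, 3 for the combination against LPS and 7 against anti-CD36. With a mean FPKM of at least 5 it was 3 with anti-CD36 and 0 for the combination against LPS. Without the mitochondrial genes it was 22 for the combination against untreated cells (6805 of all genes) and 18 against anti-CD36 (5376). Removing the length trend left 2 with anti-CD36. With a replicate block it was 13 with LPS, 4 with anti-CD36, and 14, 1 and 11 for the combination against untreated cells, LPS and anti-CD36. Replicate differences correlated between groups at -0.65 (untreated with anti-CD36) to 0.53 (untreated with the combination). The labels do not say whether libraries of the same number share more than that number, and these values cannot tell.

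Over all genes, a mean FPKM of at least 5 gave 3665 calls with LPS (5614 as reported), 811 with anti-CD36 (1405), and 3927, 88 and 3098 for the combination against untreated cells (6076), LPS (183) and anti-CD36 (4844). For the combination against LPS the count was 121 without the mitochondrial genes, 2384 when the 2 groups were fitted alone, 46 with a replicate block and 84 after removal of the length trend. For anti-CD36 alone these last 3 settings gave 0, 863 and 421, and fitting the 2 groups alone gave 3212 for the combination against anti-CD36. The interaction had 0 calls with a pseudocount of 0.1 and 6 with 5, against 1 as reported. With single libraries left out, counts over all genes ran from 3583 to 7080 with LPS, 0 to 3726 with anti-CD36, 4382 to 7408, 1 to 1450 and 3214 to 6374 for the combination against untreated cells, LPS and anti-CD36, and 1 to 616 for the interaction. The cause of these shifts was not tested.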
